A study of Mus musculus with 12 samples.

Results

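The genes described here encode the proteins of the cytosolic ribosome. They were taken by symbol from the deposited count table: Rpl or Rps followed by a number and at most 1 of the letters a, l or x and a further number, plus Rplp0, Rplp1, Rplp2 and Rpsa, without the entries marked as pseudogenes by the ending -ps. This gave 89 members of 36255 genes in the table. The members comprise 77 main ribosomal protein genes (43 of the large subunit, 3 of the P stalk and 31 of the small subunit), 7 paralogs (Rpl3l, Rpl7l1, Rpl10l, Rpl22l1, Rpl39l, Rps4l and Rps27l) and 5 copies that the GENCODE M21 annotation lists as processed pseudogenes although their symbols carry no -ps (Rpl6l, Rpl32l, Rps3a2, Rps3a3 and Rps12l1). Rps4l is annotated as a transcribed processed pseudogene. Chromosome 7 holds 15 of the 89 members.

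Polyadenylated RNA of mouse embryos was sequenced in 11 libraries, which fall into 6 groups by title: Skp1aKO at 9.5 days post coitum (dpc, n = 2), Skp1acont PI at 9.5 dpc (n = 1), Skp1acont at 9.5 dpc (n = 2), wt PI (n = 2) and plain wt (n = 2), both also at 9.5 dpc, and wt at 9.0 dpc (n = 2). SKP1A links F-box proteins to the cullin of SCF ubiquitin ligases, and the study concerns its part in the degradation of the Polycomb complex PRC2. No label explains the abbreviations "PI", "cont" and "mb", or gives an allele or Cre driver. The series text speaks of stem cells or embryoid bodies while the samples are labelled embryo, and a list of 10 neural plate and midbrain markers was detected in every library.

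Each ribosome holds one copy of nearly every ribosomal protein, so these genes are known to be transcribed and translated as a coordinated group. Most of their mRNAs begin with a run of pyrimidines, the 5′ terminal oligopyrimidine (TOP) tract, through which mTOR signalling controls their translation. Several members are known outside the ribosome as well: Rpl5 and Rpl11 form a particle with 5S rRNA that restrains Mdm2, and loss of 1 copy of many of these genes causes Diamond-Blackfan anaemia in humans.

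Several facts about the libraries bear on all results that involve a Skp1a label. Skp1a itself had 199 and 212 CPM (counts scaled to a common library size, with TMM factors) in the Skp1aKO-labelled libraries, 273 CPM in Skp1acont PI, 303 and 104 CPM in Skp1acont, and 930 to 1337 CPM in the 6 wt libraries. Its level did not set Skp1aKO apart from Skp1acont, and Skp1aKO is used below as a label. Total counts ran from 2320599 to 11607085. Transcripts of the mitochondrial genome took 5.98% to 15.8% of the counts in the 5 Skp1a-labelled libraries and 2.44% to 4.01% in wt. Dock10 took 4.49% to 11.97% against 0.532% to 2.27%, and the summed rate of 2036 chemoreceptor genes, the receptors of smell and taste, was 4.56 to 14.8 times the lowest library against 1 to 1.76 times. Skp1acont replicate 2 stood apart, with the lowest total and the highest value of all 3 measures. Among marker lists, 6 erythroid genes summed to 603 to 4641 CPM in Skp1a-labelled libraries against 7180 to 19700 CPM in wt, and 5 endothelial genes to 634 to 1190 CPM against 157 to 473 CPM. No gene of either list was at 0 in all libraries. Other lists differed too between Skp1aKO and plain wt at 9.5 dpc. The 10 neural plate and midbrain genes summed to 639 and 646 CPM in the Skp1aKO-labelled libraries, against 1880 and 1740 CPM in wt. Members of that list went both ways. En1 had 54.8 and 59.6 CPM in the Skp1aKO-labelled libraries, against 23.5 and 29.1 CPM in wt. Otx2 had 193 and 181.5 CPM, against 263.9 and 268.5 CPM. The neuron list summed to 323 and 160 CPM in the Skp1aKO-labelled libraries, against 518 and 596 CPM in wt. The macrophage and platelet list summed to 19.5 and 22.75 CPM, against 102 and 116 CPM. The head mesenchyme list had 81.3 and 82.15 CPM, against 134 and 123 CPM. Surface ectoderm and trophoblast lists were lower too. In the other direction the yolk sac endoderm list had 10.3 and 10.2 CPM, against 4.405 and 2.57 CPM. The pluripotent cell list had 22.5 and 15.2 CPM, against 9.54 and 4.33 CPM. The part of these differences in the results below was not tested.

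The members together took 5.996% and 5.717% of all counts in the Skp1aKO-labelled libraries. They took 9.20% in Skp1acont PI and 9.33% and 3.44% in the 2 Skp1acont libraries. In wt embryos their share was 12.9% and 12.7% with PI, 13.8% and 14.7% at 9.5 dpc, and 16.1% in both libraries at 9.0 dpc. Every Skp1a-labelled library therefore lay below every wt library, and the 3 wt groups did not overlap with each other. The 95% Wilson interval of each share was at most 0.0734 percentage points wide, which covers counting error only. Large subunit genes, P stalk included, had 1.20 to 1.32 times the counts of small subunit genes in every library, so both subunits carried the shift. In bulk tissue, fewer cells of a kind that makes many ribosomes and less RNA per cell cannot be told apart.

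**Figure D1:**
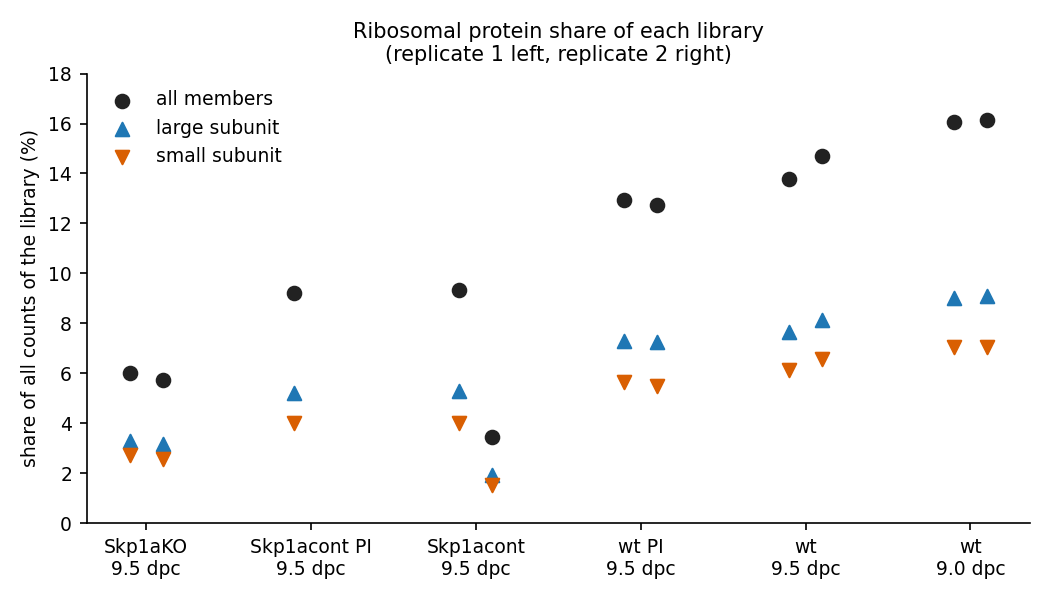
Share of all counts of a library (%, vertical axis) that fell on ribosomal protein genes, with the groups along the horizontal axis and 1 symbol per library (replicate 1 left of replicate 2): black circles for all 89 members, upward triangles for the large subunit and downward triangles for the small one. The Skp1a-labelled libraries sit between 3.44% and 9.33%, below the 6 wt libraries at 12.7% to 16.1%.

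As group means, the share was 5.86% ± 0.197 in the Skp1aKO-labelled libraries and 14.2% ± 0.636 in wt at 9.5 dpc (SD, n = 2 each), a ratio of 0.412. It was 6.38% ± 4.17 in Skp1acont, where the 2 libraries differed by more than any others of 1 group (ratio to wt 0.449). Without the mitochondrial transcripts and Dock10 in the total, the shares were 7.39% and 6.81% in the Skp1aKO-labelled libraries, 10.6% in Skp1acont PI, 10.4% and 4.76% in Skp1acont, and 13.2% to 16.9% in wt, so the groups still did not overlap.

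Levels between genes are compared per kilobase (kb) of exon, as CPM by library totals. In the 6 wt libraries Rpl32, a large subunit protein, had the highest level per kb, with a median of 4633 CPM per kb (range 3588 to 4838). Rpl23a, which lies at the exit of the peptide tunnel, had a median of 3509 CPM per kb (2512 to 3764). These ranges run over the same 6 libraries, so their overlap does not decide the order of both genes. Over the longest transcript the wt medians were 4925 CPM per kb for Rpl32 and 5054 CPM per kb for Rpl23a. Their order therefore depended on the length used, and on that length Rpl32 ranked 4 and Rpl23a 3. Rpl12, a protein of the stalk base, had the lowest level per kb of the main genes, with a median of 19.4 CPM per kb (16.8 to 26.4), and Rpl5 was next at 65.0 CPM per kb (60.6 to 69.2), with no overlap between the 2 genes. Levels per kb thus spanned a wide range within the family. Rpl12 has 3598 bases of annotated exon, and over its longest transcript its wt median was 24.4 CPM per kb. In Skp1a-labelled libraries the median of Rpl32 was 1053 CPM per kb and that of Rpl12 was 15.2 CPM per kb. The highest level there belonged to Rplp1, a P stalk protein, at 2561 CPM per kb, against a wt median of 2913 CPM per kb.

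The start sites of 64 of the 89 members were in the RefSeq promoter table of GRCm38.p6, and their windows were searched for a TOP tract, taken as a C followed by at least 5 bases that are each C or T and beginning within 5 bases of the annotated start. Only the strand that reads like the mRNA was searched, since the tract is a feature of the mRNA. The tract was present in 25 of 57 main members (43.9%), against 11.9% of 27025 genes in the table. It began exactly at the annotated start in 11 main members or 19.3%, against 2.05% of all genes. The windows below run from 10 bases before the start through 20 bases from the start on, 5′ to 3′, with the tract in capitals. They are shown because the members with the largest and the smallest differences between embryos fall on both sides of this feature. The first 6 windows hold a tract.
Rps27 (chr3:90213629-90213658, minus strand): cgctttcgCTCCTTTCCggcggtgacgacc
Rpl35 (chr2:39005112-39005141, minus strand): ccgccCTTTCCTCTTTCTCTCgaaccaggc
Rps15a (chr7:118116128-118116157, minus strand): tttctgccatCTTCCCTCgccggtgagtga
Rpl22l1 (chr3:28805498-28805527, plus strand): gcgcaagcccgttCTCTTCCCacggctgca
Rplp2 (chr7:141447641-141447670, plus strand): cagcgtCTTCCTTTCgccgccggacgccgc
Rps2 (chr17:24720053-24720082, plus strand): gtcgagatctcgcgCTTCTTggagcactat
In the next 4 windows no tract was found by this definition, which says only that these letters are absent from this window.
Rps25 (chr9:44407704-44407733, plus strand): ccgacatcttagcgaggctgctgtggtcta
Rps7 (chr12:28635934-28635963, minus strand): cggtttccacccacctacttccgctgtccc
Rpsa (chr9:120127756-120127785, plus strand): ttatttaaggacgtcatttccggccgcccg
Rplp0 (chr5:115559457-115559486, plus strand): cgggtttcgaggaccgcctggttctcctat
For Skp1aKO against wt at 9.5 dpc, the median log2 fold change was -1.73 over the 25 main members with a tract and -2.12 over the 32 without one, and both sets spread widely (-2.97 to -0.52 and -3.44 to -0.01).

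Skp1aKO against wt at 9.5 dpc sets the labelled mutant embryos against wild type of the same age. Ribosomal protein mRNAs fell as a group: 62 of the 84 members with enough counts to test were lower and 0 were higher (edgeR quasi-likelihood test, Benjamini-Hochberg adjusted p under 0.05). Of all 18837 genes tested, 36.4% were called, 18.7% as lower and 17.6% as higher. The median log2 fold change was -1.99 over the members and 0.24 over all genes tested. Among the main genes the largest falls were those of Rps25, which many viral internal ribosome entry sites need, Rps7, a small subunit protein that is mutated in some human Diamond-Blackfan anaemia, and Rpl32. Rpsa, the laminin receptor precursor of the small subunit, and Rpl8 of the large subunit, named after its values were seen, had nearly equal means in both groups.

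Rps25, which lies on chromosome 9 (44407139 to 44410427, GRCm38), showed 442 and 336 CPM in the Skp1aKO-labelled libraries, against 4484 and 3976 CPM in wt at 9.5 dpc. Rps7, which lies on chromosome 12 (28630854 to 28635953), showed 446 and 387 CPM in the Skp1aKO-labelled libraries, against 3407 and 4363 CPM in wt. For both genes the groups lay far apart, and the libraries of 1 group differed much less than the groups did. The log2 fold change was -3.44 ± 0.70 for Rps25 (SE, adjusted p = 0.009) and -3.22 ± 0.67 for Rps7 (adjusted p = 0.00946). Rpl32 had 782 and 577 CPM in the Skp1aKO-labelled libraries, against 5488 and 5630 CPM in wt, a log2 fold change of -3.03 (adjusted p = 0.0104). Rpl35, which sits at the tunnel exit and whose tract is shown above, changed by -2.91 on the log2 scale.

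All 9 genes of the peptide tunnel and its exit (Rpl4, Rpl17, Rpl19, Rpl22, Rpl23a, Rpl26, Rpl31, Rpl35 and Rpl39) were lower, with log2 fold changes of -2.91 to -1.79. Both proteins of the 5S particle were lower, Rpl11 by a log2 fold change of -2.45 (adjusted p = 0.0142) and Rpl5 by -1.52 (adjusted p = 0.0469). Of 21 Diamond-Blackfan genes, 18 were lower. A list of 5 genes was chosen among those with a known mouse mutant phenotype of patterning or pigmentation, and all 5 were lower as well. Among them were Rpl38, which shapes Hox mRNA translation in mouse embryos (-1.86), Rpl24 (-2.44) and Rps19 (-2.04). Of 7 genes around the mRNA channel 3 were lower, and all 7 values were negative. By subunit, 36 of 43 large subunit genes, 21 of 31 small subunit genes and 1 of 3 P stalk genes were lower. All these counts stand beside 62 of the 84 members and 18.7% of all genes lower. The lists share genes, and whether any of them differs from the rest of the family was not tested.

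The P stalk recruits translation factors to the ribosome. Rplp0, its base, had 741 and 553 CPM in the Skp1aKO-labelled libraries, against 2315 and 2901 CPM in wt, a log2 fold change of -2.01 ± 0.70 (adjusted p = 0.0476). Rplp1 and Rplp2, the acidic proteins bound to it, averaged 898 ± 123 and 697 ± 87 CPM in the Skp1aKO-labelled libraries, against 1659 ± 145 and 996 ± 80.7 CPM in wt (SD, n = 2 each). Neither passed the test (log2 fold changes of -0.89 and -0.52, adjusted p = 0.131 and 0.31). Rpsa had 1305 and 867 CPM in the Skp1aKO-labelled libraries, against 1009 and 1175 CPM in wt, so the groups overlapped (log2 fold change -0.01 ± 0.51, adjusted p = 0.993). Rpl12, the gene with the lowest level per kb, did not pass either (-1.18, adjusted p = 0.0542).

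These counts rest on both libraries of each group. Leaving out 1 of them left a group of 1 library, and calls then fell sharply, for the members as for all genes. The direction was kept, with a median of -2.17 to -1.80. Without Skp1acont replicate 2, which enters this fit through the shared spread, 81 members were lower, where 31.8% of all genes were lower and 36.1% higher. Scaling by library totals called 38 members lower, all of them among the 62, where 7.43% of all genes were lower, with a median of -1.20 beside 1.03 over all genes.

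**Figure D2:**
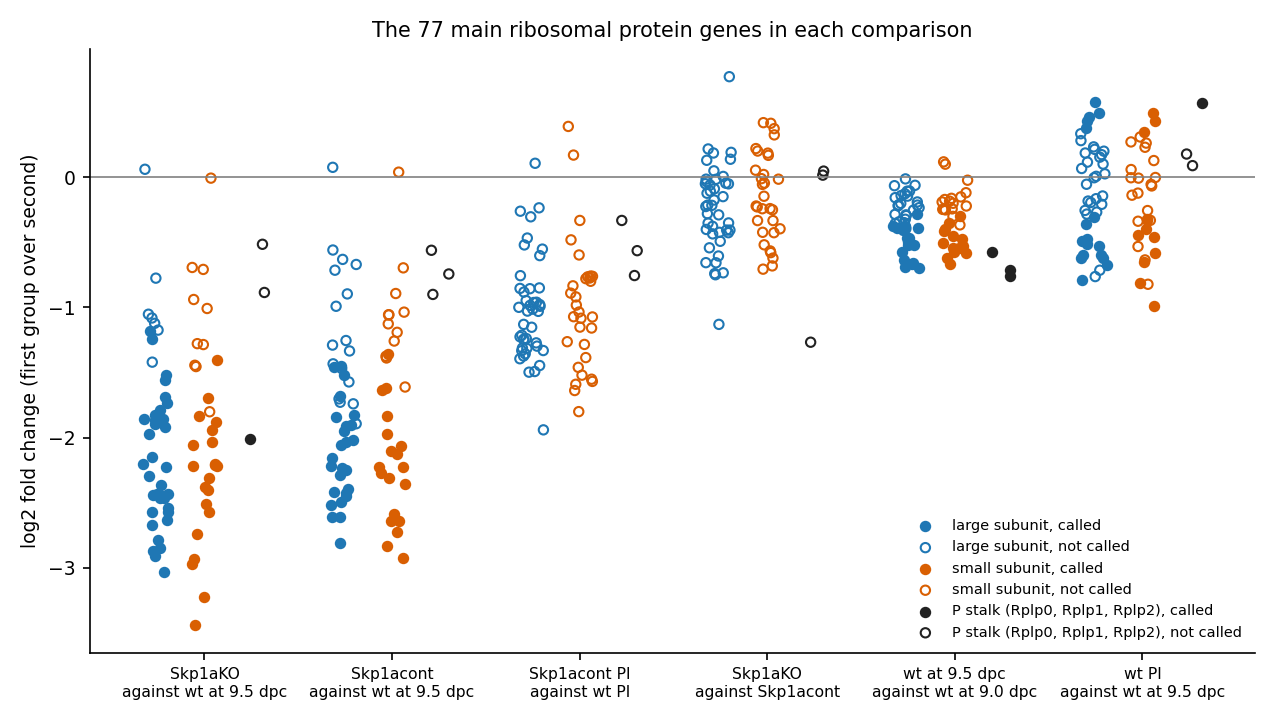
Log2 fold change (vertical axis, first-named group over the other) of the 77 main ribosomal protein genes in the 6 comparisons (horizontal axis), 1 point per gene, split into large subunit, small subunit and P stalk, filled where the adjusted p was under 0.05 and open elsewhere; the scatter within a column has no meaning. Genes lie mostly below 0 in the 3 comparisons of Skp1a-labelled with wt libraries (medians -1.97, -1.82 and -1.01) and nearer to 0 in Skp1aKO against Skp1acont (median -0.22).

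Skp1acont against wt at 9.5 dpc uses the same wt libraries, so its values are not independent of those above. Of the 84 members 48 were lower and 0 higher, where 36.4% of all genes tested were called, 17.1% lower. The median was -1.74 over the members and 0.34 over all genes. The paralog Rpl22l1, which Rpl22 is known to repress in mouse, had 369 and 119 CPM in Skp1acont, against 3180 and 2393 CPM in wt (log2 fold change -3.52 ± 0.60, adjusted p = 0.00767). Rps25 had 918 and 198 CPM in Skp1acont, against 4484 and 3976 CPM in wt (-2.92, adjusted p = 0.0148), and Rps15a had 773 and 299 CPM in Skp1acont, against 4075 and 3588 CPM in wt (-2.84, adjusted p = 0.00946). Both Skp1acont libraries lay below both wt libraries for these genes, and replicate 2 was the lowest each time.

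Rplp0 had 2632 and 482 CPM in Skp1acont, against 2315 and 2901 CPM in wt, so the groups overlapped (-0.74, adjusted p = 0.381). Of the 2 Skp1acont libraries, replicate 1 was within the wt range for Rplp0 and above it for Rpsa, at 1599 CPM against 1009 and 1175 CPM. Without replicate 2, 55 members were lower and 2 higher, the 2 being Rpsa (0.67, adjusted p = 0.0188) and Rpl8 (0.63, adjusted p = 0.0159). In that fit 19.2% of all genes were lower and 19.9% higher. Without replicate 1 all 84 were lower, where 35.6% of all genes were lower and 38.4% higher. Leaving out 1 wt library left a group of 1 library, and calls then fell sharply, for the members as for all genes. The median over the members was -1.84 without wt replicate 1 and -1.50 without wt replicate 2. Fitted on these 2 groups alone, 0 members and 0.0% of all genes were called, so that fit does not set the members apart. The median over the members was then -1.54.

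Skp1acont PI against wt PI rests on 1 library against 2, whose spread was taken from all groups. In this comparison edgeR called 0 of 84 members, with 5 at an unadjusted p under 0.05, and DESeq2 called 9, all lower. Of all genes, edgeR called 0.441%, 0.329% as lower and 0.111% as higher. DESeq2, which tested 89 members, called 4.74% of all genes, 3.56% as lower and 1.17% as higher. Of the 84 values 81 were negative and 3 positive, with a median log2 fold change of -1.03 against 0.10 over all genes. Rpl22l1 had 383 CPM in Skp1acont PI, against 1604 and 1450 CPM in wt PI (log2 fold change -2.00 ± 0.73, adjusted p = 0.145). Rps7 had 938 CPM in Skp1acont PI, against 3295 and 3237 CPM in wt PI, and Rpl7, a large subunit protein, had 1001 CPM in Skp1acont PI, against 3974 and 3713 CPM. Rpsa went the other way, with 1686 CPM in Skp1acont PI and 1316 and 1259 CPM in wt PI, without passing the test. The number of calls turned on Skp1acont replicate 2, since without that library in the fit 63 members were lower, beside 22.5% of all genes lower and 20.6% higher. With only the 2 groups compared 70 were lower and 3 higher, beside 32.1% and 24.9% of all genes.

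Skp1aKO against Skp1acont is the comparison of the labelled mutant with its labelled control. In edgeR 0 of 84 members passed, as did 0.0% of all genes tested. There was 1 member at an unadjusted p under 0.05, and DESeq2 called 0. The median was -0.22 over the members and -0.11 over all genes. The share of the family in the total had a ratio of 0.917 between the group means, with an SD of 0.6. Rplp0 had 741 and 553 CPM in the Skp1aKO-labelled libraries, against 2632 and 482 CPM in Skp1acont (-1.27 ± 0.69, adjusted p = 0.809). Both Skp1aKO-labelled libraries thus lay between the Skp1acont libraries. Rpl13, a large subunit protein, had 801 and 618 CPM in the Skp1aKO-labelled libraries, against 440 and 391 CPM in Skp1acont, with no overlap (0.77 ± 0.41, adjusted p = 0.808).

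Which Skp1acont library was kept set the direction of this comparison. Without replicate 2, 52 members were lower in the Skp1aKO-labelled libraries and 1, Rpl13, was higher (0.71 ± 0.24, adjusted p = 0.0343), where 17.5% of all genes in that fit were lower and 9.79% higher. Rplp0 then had a log2 fold change of -2.01 ± 0.21 (adjusted p = 5.7e-07). Without replicate 1, 63 members were higher and 0 lower, with a median of 0.81, where 21.2% of all genes were higher and 10.1% lower, with a median of -0.08. The single remaining control library is assumed in both fits to vary like the other groups.

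Counted by library rather than by test, most members did not overlap between Skp1a-labelled and wt groups. In Skp1aKO against wt at 9.5 dpc 82 members lay lower and 0 higher, beside 38.5% and 46.0% of all genes, and in Skp1acont against wt 75 lay lower and 0 higher, beside 31.5% and 38.7%. In Skp1acont PI against wt PI 81 lay lower and 3 higher, beside 40.9% and 47.6%. Across labels, 73 of 84 members had all 5 Skp1a-labelled libraries below all 6 wt libraries in TMM-scaled CPM, and 0 had all above, beside 21.3% of all genes below and 21.3% above. By library totals it was 49 members below, beside 7.79% of all genes. The 11 members whose libraries overlapped in TMM-scaled CPM were Rpl8, Rpl12, Rpl18, Rpl28, Rpl29, Rplp0, Rps2, Rps3a2, Rps4l, Rps12l1 and Rpsa.

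The composition of the family, free of scaling between libraries, is given by each member's percentage of the summed counts of all 89 members. In the 5 Skp1a-labelled libraries 17 of the 84 members took a larger share than in any wt library, and 13 took a smaller one. Rpsa took 2.82% and 2.28% in the Skp1aKO-labelled libraries, 2.27% in Skp1acont PI and 2.15% and 2.67% in Skp1acont. In wt it took 0.813% and 0.821% with PI, 0.588% and 0.642% at 9.5 dpc, and 0.559% and 0.571% at 9.0 dpc. Rpl8 took 1.53% and 1.59% in the Skp1aKO-labelled libraries, 1.24% in Skp1acont PI and 1.20% and 1.80% in Skp1acont, against 0.339% to 0.557% in wt. Both genes thus held a larger part of the family in all 5 libraries, Skp1acont replicate 1 included, with a ratio of medians of 3.70 and 3.69. Rps2, which lines the mRNA entry, had a ratio of 2.38, Rplp2 of 2.28 and Rplp1 of 1.95.

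In the other direction, Rps25 took 0.956% and 0.883% in the Skp1aKO-labelled libraries, 1.21% in Skp1acont PI and 1.23% and 0.823% in Skp1acont, against 1.66% to 2.61% in wt. Rps7 took 0.964% and 1.02% in the Skp1aKO-labelled libraries, 1.26% in Skp1acont PI and 1.34% and 1.02% in Skp1acont, against 1.99% to 2.38% in wt. Their ratios of medians were 0.483 and 0.490, and that of Rpl22l1 was 0.432. With the summed member counts as library size, Skp1aKO against wt at 9.5 dpc called 20 members higher and 18 lower, where 67.2% of all genes were higher and 1.73% lower on that scale. Rpsa was then higher by 2.05 ± 0.17 (log2, adjusted p = 0.000568) and Rpl8 by 2.14 ± 0.20 (adjusted p = 0.00069), while Rps25 changed by -1.38 ± 0.20 (adjusted p = 0.00197). These are places within the family and not levels in the embryo.

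**Figure D3:**
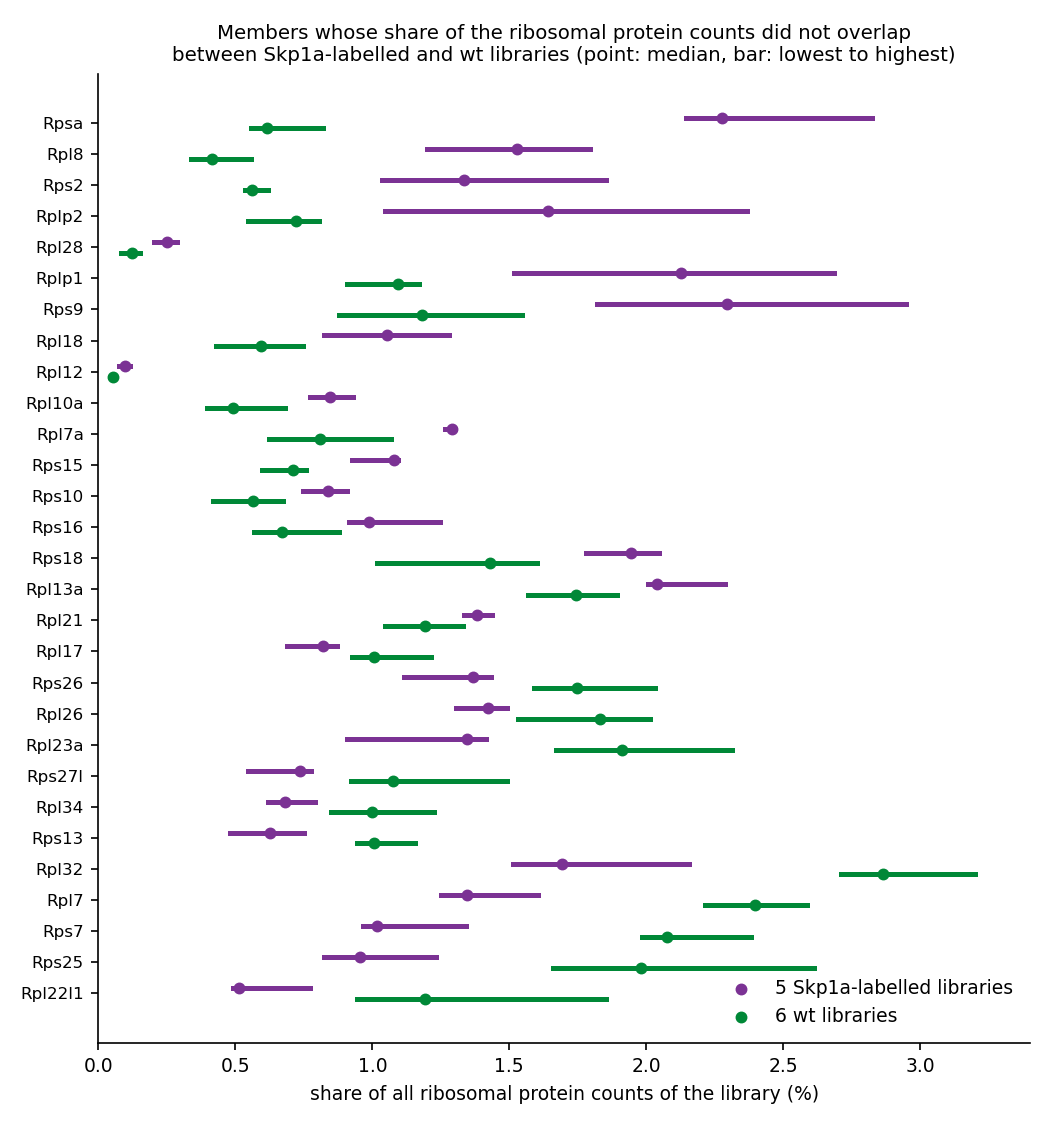
Share of single members in the summed counts of all ribosomal protein genes of a library (%, horizontal axis) for 29 members without overlap, 1 row each, with the median as a point and the lowest to highest library as a bar, for the 5 Skp1a-labelled libraries above the 6 wt libraries in each row. Rpsa sits at 2.15% to 2.82% in the Skp1a-labelled libraries and at 0.559% to 0.821% in wt, and Rps25 at 0.823% to 1.23% and 1.66% to 2.61%.

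The stage comparison, wt at 9.5 dpc against wt at 9.0 dpc, was fitted on the 6 wt libraries, whose biological coefficient of variation was 19.6%, against 35.35% over all 11. CPM of members in the wt comparisons are scaled among these 6 libraries. Ribosomal protein mRNAs were lower at 9.5 dpc, by a median of -0.32 on the log2 scale against -0.03 over all genes. Of 83 members tested 38 were lower and 1 was higher, where 31.7% of 13126 genes were called, 16.7% lower. All 3 P stalk genes were lower, with 19 of 43 large and 14 of 31 small subunit genes. Marker lists differed too, with their CPM scaled over all 11 libraries. The 10 neural plate and midbrain genes summed to 1880 and 1740 CPM at 9.5 dpc, against 514 and 524 CPM at 9.0 dpc. Members of that list went both ways. En1 had 23.5 and 29.1 CPM at 9.5 dpc, against 51.5 and 51.6 CPM at 9.0 dpc, and Pax5 11.75 and 12.04 CPM, against 16.3 and 21.0 CPM. Otx2 had 263.9 and 268.5 CPM at 9.5 dpc, against 112 and 143 CPM at 9.0 dpc, and En2 58.0 and 52.6 CPM, against 20.4 and 22.4 CPM. The 5 neuron genes summed to 518 and 596 CPM at 9.5 dpc, against 77.5 and 87.2 CPM. The 6 erythroid genes summed to 14810 and 19700 CPM at 9.5 dpc, against 7980 and 7703 CPM at 9.0 dpc, and 5 macrophage and platelet genes to 102 and 116 CPM, against 3.46 and 5.57 CPM. Trophoblast and placenta genes, 5 in all, summed to 179.5 and 34.1 CPM at 9.5 dpc, against 3.11 and 5.57 CPM at 9.0 dpc. In the other direction 5 surface ectoderm genes summed to 25.3 and 32.3 CPM at 9.5 dpc, against 226 and 238 CPM at 9.0 dpc, and 5 head mesenchyme genes to 134 and 123 CPM, against 178 and 149 CPM. Their part in the result was not tested.

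Rplp2 had 758 and 814 CPM at 9.5 dpc, against 1394 and 1264 CPM at 9.0 dpc (log2 fold change -0.76 ± 0.10, adjusted p = 0.000437). Rplp0 had 1868 and 2242 CPM at 9.5 dpc, against 3264 and 3467 CPM at 9.0 dpc (-0.71, adjusted p = 0.00132), and Rplp1 averaged 1308 ± 74.4 CPM against 1945 ± 111 CPM (SD, n = 2 each, -0.57, adjusted p = 0.00255). The stalk genes therefore moved together, and in none of them did the stages overlap. Among the other genes with large falls were Rpl27 (-0.70) and Rps18 (-0.67), a protein of the small subunit head. Of the 4 paralogs tested 2 were lower: Rps4l had 32.0 and 35.1 CPM at 9.5 dpc, against 60.7 and 54.5 CPM at 9.0 dpc (-0.77 ± 0.11, adjusted p = 0.000755), the largest fall of any member, and Rpl7l1 changed by -0.66 (adjusted p = 0.00432). The paralogs Rpl22l1 (0.11) and Rps27l (-0.002) and the parent Rps27 (0.10) did not pass. The only higher member was Rps12l1, annotated as a processed pseudogene, with 429 and 326 CPM at 9.5 dpc, against 65.8 and 128 CPM at 9.0 dpc (1.95 ± 0.42, adjusted p = 0.0433). With the lot as a replicate block its call was lost (1.90, adjusted p = 0.109), while Rpl10, which completes the large subunit, became lower (-0.29, adjusted p = 0.0155).

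The stage result depended on the scale. Library totals called 24 members lower and 1 higher, beside 10.4% and 18.4% of all genes. Relative to the family itself 9 were lower and 2 higher, beside 6.75% and 28.2%. In the fit of all 6 groups, with its larger spread, 0 members passed, beside 1.6% of all genes called and 0.334% lower. That fit therefore does not set the members apart. The reported fit leaves out the lot, and with the lot as a replicate block 52 were lower and 0 higher, beside 22.8% and 18.8% of all genes. Leaving out 1 library of either stage left a group of 1 library, and the number of calls then varied, for the members as for all genes. The median over the members was -0.434 to -0.285.

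wt PI against wt at 9.5 dpc shares the 9.5 dpc libraries with the stage comparison. Here 11 members were higher and 24 lower of 83, where 28.0% of all genes were called, 15.6% higher and 12.4% lower, so the number of higher members was near that background. The median was -0.15 over the members and 0.01 over all genes. With the summed member counts as library size 22 were higher and 15 lower, beside 24.6% and 6.57% of all genes. Without overlap of the groups 38 members lay lower and 21 higher, beside 31.3% and 34.8% of all genes. The lower members included 6 of 9 tunnel and exit genes. The higher members included Rplp0, Rpl3 and the paralogs Rpl7l1 and Rps4l. With CPM scaled over all 11 libraries, the neural plate and midbrain list summed to 752 and 733 CPM in wt PI, against 1880 and 1740 CPM in wt at 9.5 dpc. Its members went both ways. En1 had 63.1 and 66.4 CPM in wt PI, against 23.5 and 29.1 CPM, and Pax5 33.4 and 33.3 CPM, against 11.75 and 12.04 CPM. Otx2 had 195.5 and 190.7 CPM in wt PI, against 263.9 and 268.5 CPM, and En2 43.8 and 40.65 CPM, against 58.0 and 52.6 CPM. The neuron list summed to 221 and 226 CPM in wt PI, against 518 and 596 CPM. The erythroid list summed to 7180 and 9081 CPM in wt PI, against 14810 and 19700 CPM in wt at 9.5 dpc, and the macrophage and platelet list to 25.5 and 25.6 CPM, against 102 and 116 CPM. The trophoblast and placenta list summed to 4.14 and 4.52 CPM in wt PI, against 179.5 and 34.1 CPM. The surface ectoderm list summed to 55.5 and 45.3 CPM in wt PI, against 25.3 and 32.3 CPM, and the head mesenchyme list to 89.3 and 94.3 CPM, against 134 and 123 CPM. The part of these differences was not tested.

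Rps27 had 1625 and 1543 CPM in wt PI, against 3810 and 2489 CPM in wt at 9.5 dpc (log2 fold change -0.99 ± 0.25, adjusted p = 0.0428). Rps15a, mutated in some human Diamond-Blackfan anaemia, averaged 1720 ± 28.9 CPM in wt PI and 3030 ± 365 CPM in wt at 9.5 dpc (SD, n = 2 each, -0.82, adjusted p = 0.000718). Rpl22l1 had 1253 and 1141 CPM in wt PI, against 2566 and 1849 CPM (-0.88, adjusted p = 0.00357), and its parent Rpl22 had 610 and 571 CPM, against 1058 and 828 CPM (-0.68, adjusted p = 0.00429). In each of these genes both wt PI libraries were below both others, and wt replicate 1 was the highest. Rpl35 (-0.79), Rps27l (-0.66), Rps25 (-0.65) and Rpl35a (-0.62) were lower as well.

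On the higher side, Rplp0 had 3150 and 2945 CPM in wt PI, against 1868 and 2242 CPM in wt at 9.5 dpc (0.57, adjusted p = 0.00505). Rpl7l1, a nucleolar relative of Rpl7, had 209 and 226 CPM in wt PI, against 115 and 142 CPM (0.76 ± 0.13, adjusted p = 0.00268). The groups did not overlap in either gene. Other higher members were Rpl29 (0.58), Rpl18 (0.49), Rps9 (0.49), Rpl7a (0.46), Rpl8 (0.43), Rpl3 (0.38) and Rps10 (0.35), together with Rps4l (0.67). Leaving out 1 library of either group left a group of 1 library. Calls then fell most without 1 of the wt PI libraries, for the members as for all genes. The median over the members was -0.233 to -0.035. The fit of all 6 groups called 0 members, beside 0.069% of all genes, so it does not set the members apart. With the lot as a replicate block 34 members were lower and 18 higher, beside 17.9% and 21.0% of all genes. In that fit Rpsa (0.23, adjusted p = 0.0486) and Rpl10 (0.24, adjusted p = 0.0446) became higher and Rpl39 lower (-0.68, adjusted p = 0.000135).

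**Figure D4:**
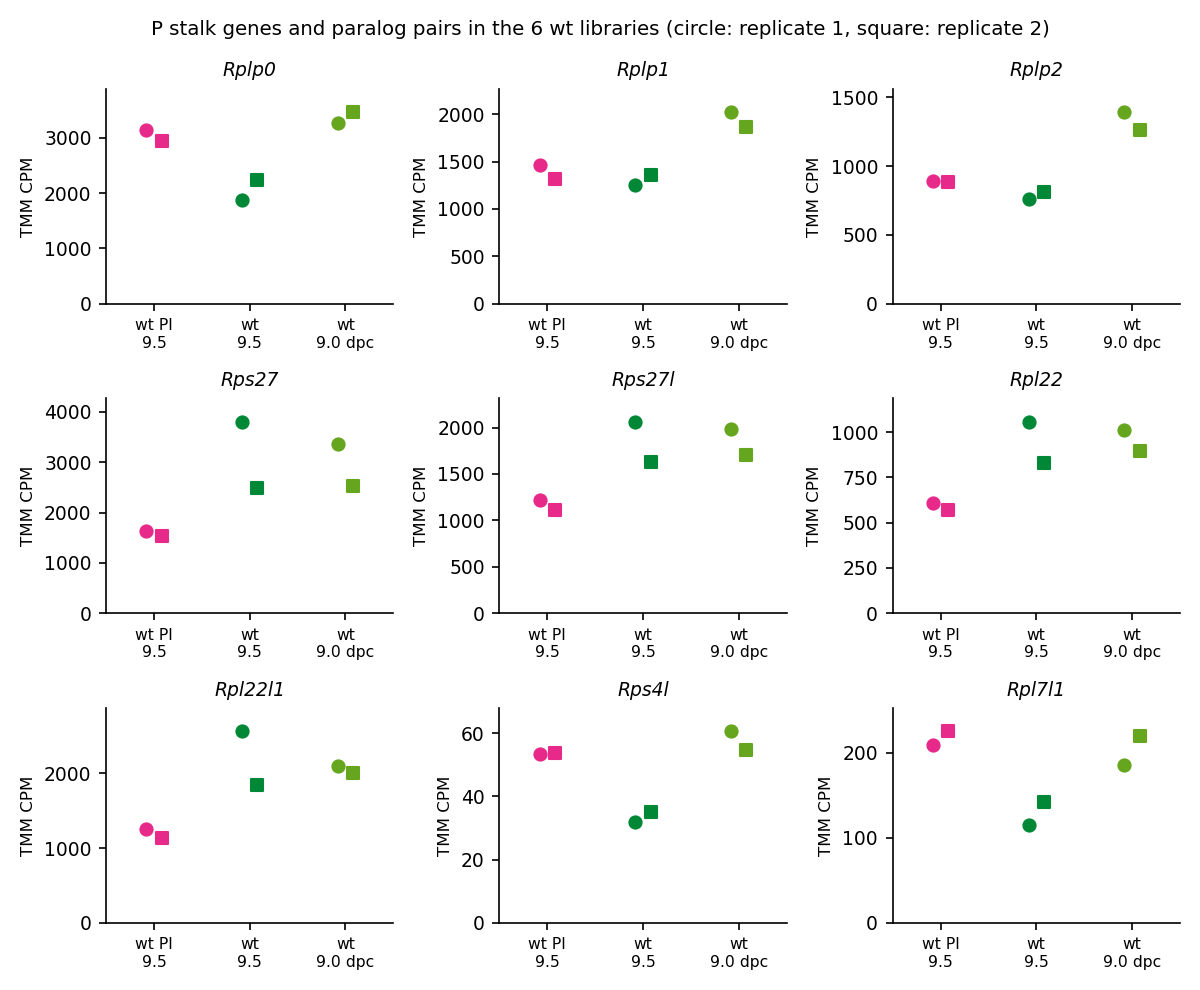
TMM-scaled CPM (vertical axes, from 0) of the P stalk genes and of paralogs with some parents in the 6 wt libraries, 1 panel per gene, with groups along the horizontal axis, circles for replicate 1 and squares for replicate 2. The 3 stalk genes lie lower at 9.5 dpc than at 9.0 dpc, and Rplp0 lies at 3150 and 2945 CPM in wt PI, above wt at 9.5 dpc at 1868 and 2242 CPM.

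All 4 paralogs with enough counts had negative values in Skp1aKO against wt at 9.5 dpc, and 2 of them passed the test. Rpl22l1 and Rps27l were lower in the Skp1aKO-labelled libraries than in wt at 9.5 dpc, Rpl22l1 with 290 and 294 CPM in the Skp1aKO-labelled libraries, against 3180 and 2393 CPM (-3.26 ± 0.59, adjusted p = 0.00643), and Rps27l, a p53 target, with 292 and 281 CPM, against 2559 and 2108 CPM (-3.03 ± 0.66, adjusted p = 0.0111). Their parents were lower too, Rpl22 by a log2 fold change of -2.21 and Rps27 by -2.97. Rpl7l1 (-1.10, adjusted p = 0.0612) and Rps4l (-0.68, adjusted p = 0.366) did not pass, while their parents Rpl7 (-2.87) and Rps4x (-2.40) did. All 7 parents were lower. Whether paralog and parent differ in their change was not tested.

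The other paralogs were too low to test. Rpl10l, a testis gene, had 0 and 1 counts in the Skp1aKO-labelled libraries, 2 in Skp1acont PI, 1 and 3 in Skp1acont and 0 in all 6 wt libraries. Rpl3l, a gene of striated muscle, had 0 and 2 counts in the Skp1aKO-labelled libraries, 1 in Skp1acont PI, 1 and 6 in Skp1acont and 0 in all 6 wt libraries. The few counts fell in the libraries with the higher chemoreceptor rate, and a count of 0 allows up to 0.258 to 0.884 CPM in the wt libraries. Rpl39l had 0 to 7 counts in any library. The copies Rps3a2 and Rps3a3 had 0 and 0, and 1 and 1 counts in the Skp1aKO-labelled libraries, against 9 and 7, and 7 and 24 counts in wt at 9.5 dpc.

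Near-identical pseudogene entries can take reads from their parents, and no source used here names the counting tool. All members with such entries are therefore uncertain, and not only those described below. The table lists 318 entries named for ribosomal protein genes with the ending -ps, of which 15 were at 0 in every library and 12 held 83.5% of the counts. Together they had 4.31% to 6.39% as many counts as the members. Over all libraries, the entries named for Rps23 had 138% as many counts as Rps23 itself, and those for Rpl28 127.5% as many as Rpl28. For Rps7 it was 6.53%. Rpl10-ps3 had 737 and 678 CPM by library totals in the Skp1aKO-labelled libraries, 589 CPM in Skp1acont PI and 449 and 228 CPM in Skp1acont, and 0 in all 6 wt libraries. Rpl10 itself had 590 and 455 CPM in the Skp1aKO-labelled libraries, 1398 CPM in Skp1acont PI and 1330 and 292 CPM in Skp1acont, against 1650 to 2444 CPM in wt. The entry was thus counted in all 5 Skp1a-labelled libraries and in none of the wt libraries, while its parent was highest in wt.

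Rpl15-ps3 had 38.0 and 2.65 CPM in the Skp1aKO-labelled libraries, 420 CPM in Skp1acont PI and 511 and 0 CPM in Skp1acont, against 897 to 1331 CPM in wt. Rpl10a-ps1 had 0 and 0 CPM in the Skp1aKO-labelled libraries, 42.6 CPM in Skp1acont PI and 47.8 and 0.431 CPM in Skp1acont, against 123 to 454 CPM in wt. In both entries the Skp1aKO-labelled libraries and Skp1acont replicate 2 were the lowest. Rps7-ps3 had 126 and 131 CPM in the Skp1aKO-labelled libraries, 126 CPM in Skp1acont PI and 94.7 and 35.3 CPM in Skp1acont. In the wt groups its replicate 1 was at 364 to 479 CPM and its replicate 2 at 38.4 to 159 CPM, so this entry followed the lot within every wt group. With each entry's counts added to its parent, 61 members were lower in the Skp1aKO-labelled libraries than in wt at 9.5 dpc, of which 60 were among the 62. Rpl10 lost its call (-1.61 ± 0.65, adjusted p = 0.0716, against -2.64 ± 0.71 and adjusted p = 0.0219 without the entries), and it was -1.43 (adjusted p = 0.0967) in Skp1acont against wt.

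**Figure D5:**
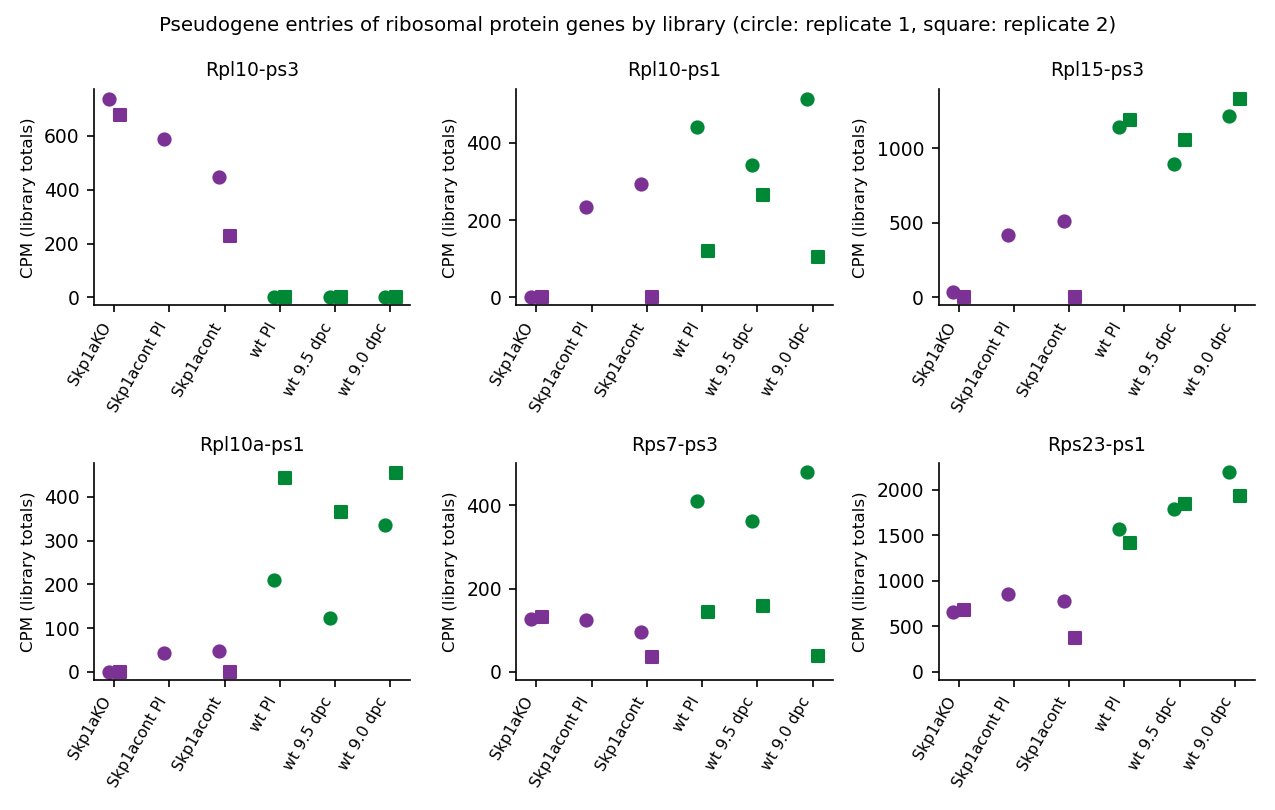
CPM by library totals (vertical axes) of 6 pseudogene entries of ribosomal protein genes, 1 panel per entry, with groups along the horizontal axis, circles for replicate 1 and squares for replicate 2. Rpl10-ps3 is at 228 to 737 CPM in the Skp1a-labelled libraries and at 0 in the 6 wt libraries, while Rpl15-ps3 and Rpl10a-ps1 are highest in wt.

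Other gene lists of protein synthesis give the setting of these values. In Skp1aKO against wt at 9.5 dpc, 47 of 80 mitochondrial ribosomal protein genes were lower and 1 higher (median -1.80), and 67 of 86 nuclear respiratory chain genes were lower and 0 higher (-2.44). Of 24 other translation factors and TOP mRNA genes 7 were lower, and of 28 ribosome biogenesis genes 3 were lower and 3 higher. Of all genes tested, 18.7% were lower and 17.6% higher. In the stage comparison 27 of the 28 biogenesis genes were lower at 9.5 dpc (median -0.84), with 16 of 24 translation factors and 47 of 80 mitochondrial ribosomal protein genes. Beside them 16.7% of all genes were lower. In wt PI against wt at 9.5 dpc 22 of the 28 biogenesis genes were higher (median 0.64), with 37 mitochondrial ribosomal protein genes higher and 11 lower. Of all genes in that comparison 15.6% were higher and 12.4% lower.

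The GC content of the main members' transcripts ran from 39.1% to 62.4% with a median of 51.0%. In Skp1aKO against wt at 9.5 dpc, 24 of 38 members above the median GC and 34 of 39 at or under it were lower. At the later stage the order was the other way, with 24 of 38 and 12 of 39 lower at 9.5 dpc. In wt PI all 9 higher main members were above the median GC, which held 9 lower ones as well, and the members at or under it held 0 higher and 13 lower. Over all genes tested, 18.7% were lower in Skp1aKO against wt and 16.7% at the later stage. In wt PI 15.6% of all genes were higher and 12.4% lower. Across the 77 main genes Pearson's r between GC and log2 fold change was 0.212 in Skp1aKO against wt and 0.384 in Skp1acont against wt. It was 0.407 in Skp1acont PI against wt PI and -0.313 in Skp1aKO against Skp1acont. In the stage comparison r was -0.345, and in wt PI against wt 0.195. Over all other genes r was 0.059, 0.096, 0.238, -0.09, -0.089 and 0.101 in the same order. Genes share libraries and base composition and are not independent replicates, so these are descriptions. What part base composition has in the differences was not tested.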

How the data were processed

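The authors deposited whole-number read counts for every gene in 1 table, with a column for each library. The submitters' processing notes name Trim Galore 0.6.7, a read trimmer, and the build GRCm38. Aligner, counter and strand setting: not given in the sources used here. Of 12 labelled libraries 11 were analysed, and Skp1acont PI replicate 2 is not analysed here. Total counts of 2320599 to 11607085 put 3 counts, the limit that a count of 0 allows, at 0.258 to 1.29 CPM. Intervals and floors cover counting error only.

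Counts were fitted with edgeR 4.0.16 in R 4.3.3 (filterByExpr by group, TMM scaling, robust quasi-likelihood F test, Benjamini-Hochberg adjustment over all genes tested, call at adjusted p under 0.05). Comparisons that involve a Skp1a label used 1 fit of all 6 groups; those among wt used a fit of the 6 wt libraries. Nothing says that libraries of a group came from separate litters, so p-values measure only how much these libraries differ within groups, and that spread may be technical. The procedure was tested on simulated data. Alternatives were DESeq2 1.42.0, other scalings and filters, a replicate block and leaving out each library. CPM are scaled by TMM unless library totals are named. Exon lengths, coordinates and GC content came from GENCODE M21 on GRCm38, and start-site windows from RefSeq's promoter table of GRCm38.p6, whose matches were made by symbol.

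Members, role lists and marker lists were chosen with earlier results of these data known. Genes are named by this rule in each comparison: the 10 called members of largest change without overlap (or of smallest p), the P stalk and Rpsa, the paralogs with their parents, the members of highest and lowest level per kb, and called members against most of the family; members of the role lists are also given. Others named were chosen after their values were seen, and some members that the rule selects are not reported here. Replicate numbers are the lot numbers in the titles. Deviations from the group means correlated between same-numbered libraries at r of 0.297 to 0.343 in the 3 pairs of wt groups, and at -0.011 to 0.18 in the other 7 pairs. Lots were therefore taken to pair the wt libraries, but the reported fits leave the lot out. The replicate block is given as an alternative, in which the biological coefficient of variation of the wt libraries was 7.19%, against 19.6%.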

Additional observations from a re-analysis of the deposited data

How the results depend on the processing

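Members called in Skp1aKO against wt at 9.5 dpc, 62 as reported, came to 38 by library totals, 38 relative to the summed family counts, and 0 to 81 with 1 library left out. For Skp1acont against wt, 48 as reported, they were 29 by library totals, 0 with only the groups compared and 0 to 84 with 1 library left out. For Skp1acont PI against wt PI, 0 as reported, they were 3 relative to the family, 9 with DESeq2, 73 with only the groups compared and 0 to 63 with 1 library left out. For Skp1aKO against Skp1acont, 0 as reported, the range was 0 to 63. The stage comparison, 39 as reported, gave 25 by library totals, 11 relative to the family, 25 with only the groups compared, 0 in the fit of all groups and 22 to 44 with 1 library left out. wt PI against wt, 35 as reported, gave 0 in the fit of all groups and 6 to 40. With a replicate block the counts were 62, 52, 0, 0, 52 and 52 in the order of these comparisons. In the comparisons with a Skp1a label, calls among all genes rose and fell with those of the members when 1 library was left out. The fit of only the groups compared in Skp1acont against wt called 0.0% of all genes as well. Without mitochondrial transcripts and Dock10 in the total, the ratio of the family's share was 0.473 for Skp1aKO against wt and 0.793 for Skp1acont PI against wt PI, against 0.412 and 0.717. The wt level of Rpl12 was 24.4 CPM per kb over its longest transcript, against 19.4. Relative to the family, the log2 fold change in Skp1aKO against wt turned positive for Rplp0 (0.058), Rplp1 (1.19), Rplp2 (1.56), Rpsa (2.05), Rpl7l1 (0.99), Rps4l (1.39), Rpl3 (0.22) and Rpl12 (0.91), and in Skp1acont against wt for Rplp0 (0.92), Rplp1 (1.17), Rplp2 (1.60), Rpl7l1 (1.04), Rps4l (1.20), Rpl3 (0.47) and Rpl12 (1.25), since that scale sets the family's sum equal in all libraries. With 1 Skp1acont library left out (values without replicate 2 first, without replicate 1 after it), Rpsa was at 0.67 and -0.73 in Skp1acont against wt. In Skp1aKO against Skp1acont the values ran between -1.43 and 0.71 for Rpl27, -1.35 and 0.64 for Rps3, -0.54 and 0.74 for Rpsa, -0.98 and 1.58 for Rps4l, -0.999 and 1.10 for Rps27l, -1.29 and 0.81 for Rpl3, -1.01 and 0.94 for Rpl7, -1.24 and 0.80 for Rps4x, and -1.06 and 0.80 for Rpl32. The cause was not tested. Over the single genes named and the settings other than leaving out a library, 1105 values kept direction and side of the threshold. A call was lost in 81 and gained in 50 with the direction kept. The direction reversed in 15 with a call before or after, and in 45 without one. With 1 library left out these numbers were 327, 127, 57, 10 and 32. Groups of 2 libraries or 1, and 2320599 counts in the shallowest library, limit all comparisons.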
